A study of Homo sapiens with 51 samples.

Results

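The cytosolic ribosomal protein genes encode the proteins of the ribosome that translates messenger RNA in the cytoplasm. RefSeq on GRCh38.p14 holds 79 protein-coding genes whose symbols follow the naming pattern of these proteins, RPL or RPS with a number, together with RPLP0, RPLP1, RPLP2 and RPSA. The 73 autosomal genes were taken, 43 for the large and 30 for the small subunit, of 38340 annotated genes used. The 4 matching genes on chromosome X and the 2 on chromosome Y were left out. Symbol and chromosome alone decided membership, and no measured value did, but the set was chosen with earlier results of these data known. They lay on 20 chromosomes, with 12 of them on chromosome 19, and their median length was 4799 bp, against 24092.5 bp for all protein-coding genes.

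Every ribosome needs nearly all of these proteins in matched amounts, so their genes are transcribed at high rates in growing cells, embryonic stem cells among them. Their transcripts typically begin at a cytosine within an unbroken run of pyrimidines, the terminal oligopyrimidine element, through which the kinase mTOR controls how well they are translated. Several members have further roles: free RPL5 and RPL11 bind the p53 inhibitor MDM2, and loss of RPS19 and of some other members causes Diamond-Blackfan anemia, a failure of red cell production.

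ATAC-seq, which marks open DNA by the insertions of a transposase, was applied to H1, an established line of human embryonic stem cells. The lines were KO (17 libraries), ΔATG, written DATG in the sample names (16 libraries), and WT (18 libraries). Each line was sampled undifferentiated on day 0, on days 1 to 5 under BMP4, a growth factor that the labels pair with mesoderm, and on days 1, 4 and 5 under SMADi, a SMAD-inhibitor kit that they pair with neuroectoderm. The edited gene is not named in the labels, which also do not say whether a line was a single clone or whether lettered replicates were separate cultures, so p-values rest on the spread between libraries, which may be technical. Groups had 2 libraries, except that KO on day 4, DATG on day 1 and DATG on day 5 under SMADi had 1 each and borrowed the spread of their table, and SMADi days 2 and 3 are not analysed here. The labels' SMADi protocol starts with dissociated single cells, seeded on day 0 with a ROCK inhibitor.

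Total counts ran from 4616521 to 7516259 per library on day 0, from 4019778 to 13850448 under BMP4 and from 7086918 to 23252871 under SMADi. The library labelled KO SMADi day 1 replicate b stood apart from its label. At 63 regions that told KO from DATG on days 4 and 5 under SMADi, its position on a scale with KO at 0 and DATG at 1 was 0.884, against 0.0458 for KO day 1 replicate a and 0.806 for the DATG day 1 library. It was kept as labelled, and some of the results that rest on it are also given without it. Markers fitted the labelled treatments in part. Within 1 kb of gene ends in WT day 5 against day 1, 3 of 5 mesoderm markers rose under BMP4 and 3 of 5 neuroectoderm markers rose under SMADi. Of 6 embryonic stem cell markers, 3 fell and 1 rose under BMP4, and 4 fell and 1 rose under SMADi. No marker was at 0 in any library. Summed over the 6 stem cell markers, WT levels were 113 and 115 CPM (counts scaled to library size) on day 5 of BMP4, against 136 and 131 CPM on day 1, and 96.0 and 112 CPM on day 5 of SMADi, against 121 and 126 CPM on day 1.

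The annotated starts of the members share the pyrimidine run that the tests of accessibility did not use. RefSeq promoter entries were at hand for 58 of the 73 genes, 71 starts in all. A run of at least 6 pyrimidines covered the start base in 63.4% of them, against 6.61% of 22199 protein-coding promoters and 7.06% of 85 promoters of mitochondrial ribosomal proteins. The start base was C in 66.2%, against 11.4% of all promoters, and the median run was 10 bases. The sequences below are starts of some of the members whose flanking accessibility moved most or that are named repeatedly further on. They run from 60 bases before the start to 15 bases from it, read 5′ to 3′ on the gene's strand. Capitals mark the run that holds the start. RPL27 is shown as a start of the set without such a run. Other starts without one, such as those of RPL32 and a second start of RPS19, are not shown.
RPLP0, chr12:120201097-120201171, minus strand: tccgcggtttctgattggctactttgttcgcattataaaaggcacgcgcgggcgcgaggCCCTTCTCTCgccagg
RPLP1, chr15:69452758-69452832, plus strand: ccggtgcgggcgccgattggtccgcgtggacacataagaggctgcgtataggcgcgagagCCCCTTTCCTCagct
RPLP2, chr11:809907-809981, plus strand: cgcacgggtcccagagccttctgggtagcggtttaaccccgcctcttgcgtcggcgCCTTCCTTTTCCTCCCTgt
RPL13A, chr19:49487548-49487622, plus strand: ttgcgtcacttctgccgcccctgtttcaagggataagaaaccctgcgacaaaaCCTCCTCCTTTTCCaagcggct
RPL38, chr17:74203618-74203692, plus strand: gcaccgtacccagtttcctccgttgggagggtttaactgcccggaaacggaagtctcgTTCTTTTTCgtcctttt
RPL27, chr17:42998359-42998433, plus strand: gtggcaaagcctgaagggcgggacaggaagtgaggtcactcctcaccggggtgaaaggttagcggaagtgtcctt
RPSA, chr3:39406660-39406734, plus strand: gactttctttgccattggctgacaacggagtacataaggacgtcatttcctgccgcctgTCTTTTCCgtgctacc
RPS16, chr19:39435935-39436009, minus strand: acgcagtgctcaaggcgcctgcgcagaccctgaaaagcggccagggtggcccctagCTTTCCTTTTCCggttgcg
RPS3, chr11:75399458-75399532, plus strand: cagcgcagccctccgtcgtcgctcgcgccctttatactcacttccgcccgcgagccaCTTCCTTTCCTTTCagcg
RPS19, chr19:41860195-41860269, plus strand: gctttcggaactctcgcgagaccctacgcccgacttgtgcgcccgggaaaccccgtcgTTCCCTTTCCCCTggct

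Short motifs were searched in the 300-base promoter entries, 250 bases before to 50 bases from the start, on both strands. CCGGAAG, the core bound by ETS factors, was present in 33.8% of the 71 member promoters, against 12.8% of all 22199. CTCGCGA was present in 18.3%, against 3.08%. AAGATGG, the core of the YY1 motif, was present in 11.3%, against 6.04%. The GC-box core GGGCGG was present in 52.1%, against 56.3%, and TATAAA in 7.04%, against 9.47%. A match describes these letters only and is not a measured binding site.

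The deposited tables hold 201-bp regions, and each region was credited to the gene with the nearest end. Regions within 1 kb of an end numbered 119 on day 0, 153 under BMP4 and 155 under SMADi for the members, and regions 1 to 50 kb away numbered 70, 99 and 129. Of the 73 members, 65, 68 and 69 had a region within 1 kb in the same order and 33, 36 and 45 had one farther out. RPL24 had no region in any table. The regions of RPS12 and RPS20 within 1 kb lay nearer to a neighbouring noncoding gene in all 3 tables, those of RPS27A nearer to CLHC1 on day 0 and under BMP4, and those of RPL18, RPL35 and RPS2 nearer to other genes on day 0. The only regions credited to RPLP0 lay 684 to 699 bp beyond its finish, since those at its start were nearer to a noncoding gene. Every tested member passed the filter on low counts, so 68 and 36 members were tested under BMP4 and 69 and 45 under SMADi. Each table had its own region set, so levels are compared only within a table.

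Starts and finishes, the far ends of the genes, were separated in a second step that was added after the first results were seen. The start class took regions within 1 kb whose nearest end was the start, and the finish class took regions within 5 kb whose nearest end was the finish, so it overlaps both distance classes. Strand was known for the 58 members with a promoter entry. In the plot of summed levels by library, the finish class of the members stood highest on day 1 of both treatments in every line.

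**Figure D1:**
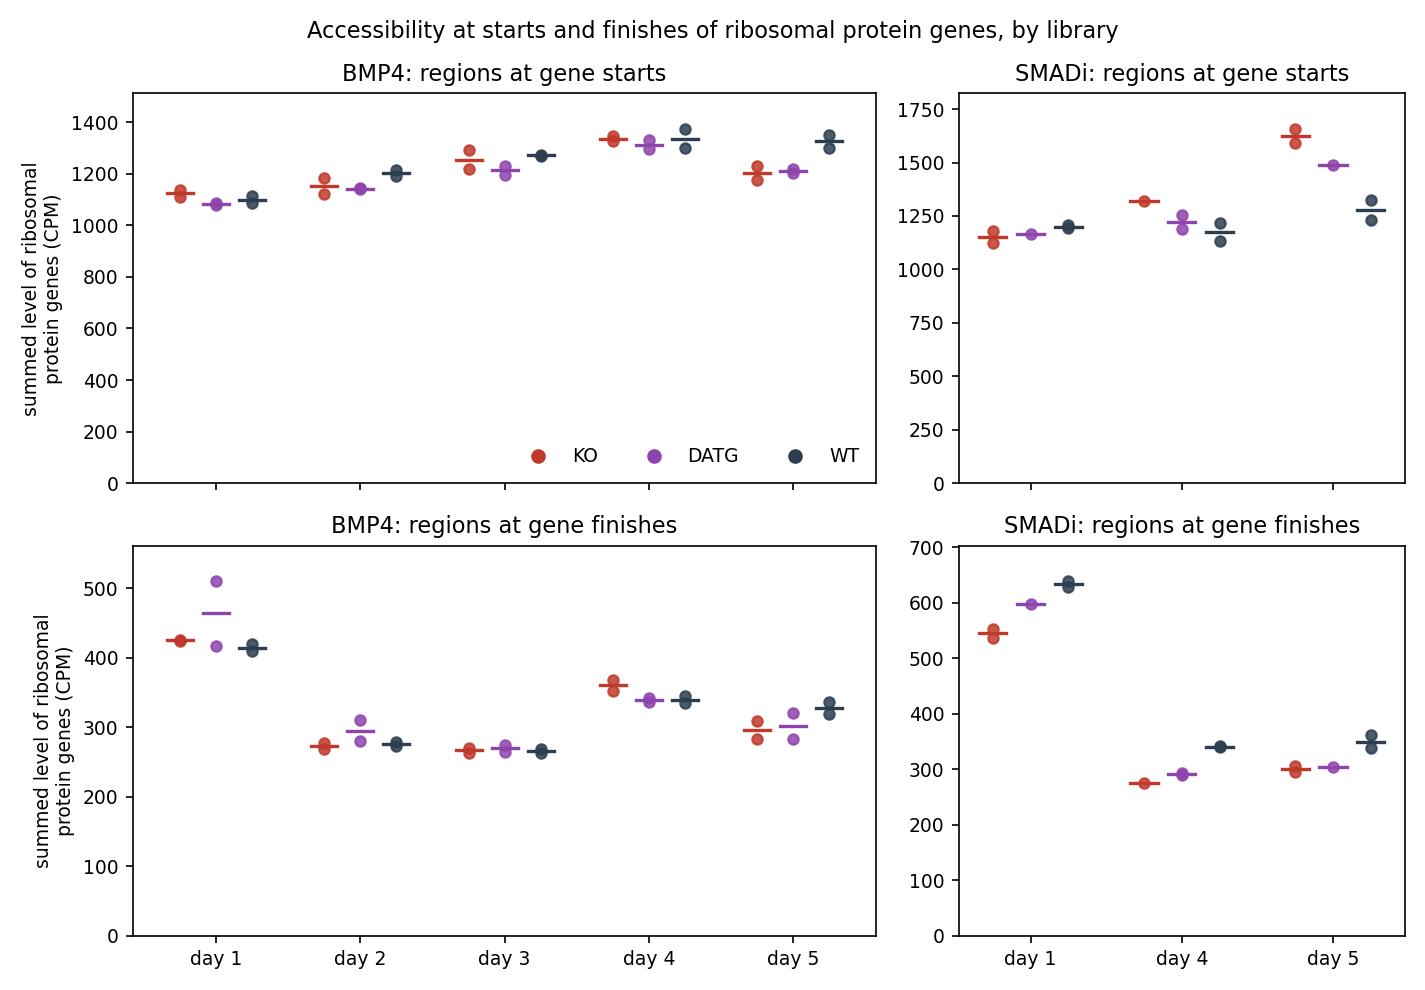
Summed accessibility (CPM, y axis) of the ribosomal protein genes at gene starts and at gene finishes in each BMP4 and SMADi library, by day (x axis) and line (colour), with 1 point per library and a bar at the mean. Under SMADi the finish sums were 537 to 639 CPM on day 1 and 276 to 362 CPM on days 4 and 5, and under BMP4 the WT finish sums were 409 and 420 CPM on day 1 and 263 to 344 CPM later.

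On day 0 no difference between the lines was called at these genes. No member was called within 1 kb in KO against WT, where 0.189% of all genes were called by edgeR's quasi-likelihood test at an adjusted p under 0.05, or in DATG against WT, where 0.169% were. Farther out, at 1 to 50 kb, the counts of members were again 0, against 0.083% of all genes for KO and 0.484% for DATG. At an unadjusted p under 0.05, 10 of 65 members passed within 1 kb for KO and 6 for DATG, and 5 and 3 of 33 farther out. At finishes none of 17 members was called in KO, against 0.112% of all genes, or in DATG, against 0.48%, while 6 members passed an unadjusted p under 0.05 in KO and 1 in DATG. The finish medians were −0.22 for members and −0.03 for all genes in KO, and −0.04 and 0.02 in DATG. The difference within 1 kb minus farther out was called for none of 30 members in KO, against 0.0251% of all genes, or in DATG, against 0.184%. It was above 0 in 27 of the 30 members in KO, with medians of 0.24 for members and 0.08 for all genes, and in 15 in DATG. RPSA, a small-subunit protein at the exit of the messenger RNA channel, had 44.9 and 33.0 CPM within 1 kb in KO cells, 35.1 and 42.7 CPM in DATG cells and 37.4 and 39.3 CPM in WT cells. The 3 lines overlapped. In simulated counts of these depths, 93% of genes changed by 1 on the log2 scale within 1 kb and 39% of those changed by 0.5 were recovered on day 0, so small differences were mostly not detectable.

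Under BMP4 the accessibility of WT cells moved up at the gene starts and down around the gene finishes. Within 1 kb, 21 of 68 members rose and 1 fell on day 5 against day 1, against 34% of all genes that rose and 9.39% that fell. The share of members that rose was near that of all genes, and the median log2 fold change was 0.22 for members and 0.17 for all genes. The direction was the other way at 1 to 50 kb, with 3 of 36 members higher and 14 lower, against 22.7% and 24.2% of all genes, and medians of −0.31 and −0.08. In bulk samples, fewer cells with an open region and less opening per cell cannot be told apart. The rise near genes depended on scaling. With scaling by total counts 9 members rose and 4 fell within 1 kb, and with loess offsets 4 rose and 2 fell. The median of all genes dropped to 0.03 and 0.04 in these settings. Here and below, shares of all genes are from the main fit with all libraries. Counts under other settings or without a library have no such share beside them. Without WT BMP4 day 5 replicate a, 12 members were called.

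RPL7 led the members that rose within 1 kb. Its levels were 49.4 and 41.5 CPM in WT cells on day 5, against 30.1 and 27.4 CPM on day 1, and the days did not overlap (log2 fold change 0.65 ± 0.12, SE, n = 2 libraries each, edgeR adjusted p = 1.2e-05). RPL26, a large-subunit protein beside the exit tunnel, had 34.0 and 41.4 CPM on day 5 and 22.1 and 30.1 CPM on day 1 (0.55 ± 0.15, adjusted p = 0.003). RPS26 and RPL28 rose by 0.51 and 0.49. RPS6, the small-subunit protein phosphorylated downstream of mTOR, rose by 0.34 ± 0.11 (adjusted p = 0.0085), with 34.9 and 36.2 CPM on day 5 and 28.2 and 28.0 CPM on day 1. RPS19 rose by 0.26 ± 0.10 (adjusted p = 0.024), with 84.1 and 84.5 CPM on day 5 and 65.6 and 75.5 CPM on day 1, and neither gene's days overlapped. By subunit, 13 of 42 large-subunit and 8 of 26 small-subunit members rose in WT day 5 against day 1. Of genes with related work, 20 of 27 translation factors, 7 of 13 mTOR pathway genes, 10 of 28 ribosome assembly factors and 21 of 73 mitochondrial ribosomal protein genes rose, beside the 34% of all genes that did, so the last pair lay near that background.

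Among the farther regions that fell, those of RPL13A, RPSA, RPL22, RPL13 and RPS28 led, at −1.77, −1.27, −0.98, −0.97 and −0.91. RPSA had 8.74 and 10.5 CPM in WT cells on day 5 of BMP4, against 23.7 and 23.4 CPM on day 1, with no overlap (−1.27 ± 0.15, adjusted p = 1.6e-11). Most of that signal came from a region 1522 bp before its start (chr3:39404998-39405198), which fell by 1.22, while a region inside the gene 140 bp from the start (chr3:39406860-39407060) rose by 0.89. RPL26, RPL29 and RPS29 were the 3 members that rose at 1 to 50 kb, by 0.85, 0.39 and 0.35.

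Falls were frequent around the gene finishes that had a region in the deposited BMP4 set. In the finish class 12 of 27 members fell and 2 rose in WT cells on day 5 of BMP4 against day 1, against 22.2% of all genes that fell and 18.1% that rose, with medians of −0.39 and −0.13. With scaling by total counts 15 fell and none rose, and without WT BMP4 day 5 replicate b 9 were called. In the start class 20 of 53 members rose and none fell, against 37% and 7.78% of all genes, with medians of 0.27 and 0.20. With scaling by total counts 7 starts rose and 2 fell. The shares of all genes are not from these other settings. The start count was 12, 13, 11 and 13 without WT day 1 replicate a, WT day 1 replicate b, WT day 5 replicate a and WT day 5 replicate b. The drop at finishes was already present on day 2, when 16 of the 27 members fell against day 1, against 11.8% of all genes. The medians were −0.71 and −0.13. It was partly undone later. The summed WT finish levels were 409 and 420 CPM on day 1, 278 and 273 CPM on day 2 and 263 and 269 CPM on day 3. They were 344 and 335 CPM on day 4 and 318 and 336 CPM on day 5. The mutant lines had the drop too. In KO cells 19 of 27 members fell on day 5 against day 1, against 16.4% of all genes, and in DATG cells 18 did, against 15.5%.

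The drop was followed in single regions. On the finish side, 10 of 26 member regions within 1 kb of the finish fell in WT day 5 against day 1 under BMP4, against 16.4% of all such regions, and 13 of 37 member regions 1 to 5 kb from it did, against 18.6%. Under SMADi the counts were 22 of 33 within 1 kb, against 20.8%, and 43 of 51 at 1 to 5 kb, against 19.7%. In the SMADi table the member medians were −1.21 in the first kb beyond the finish and −1.79 and −1.67 in the next ones, while the medians of all finish regions in those bins were −0.08, −0.09 and −0.06. At 5 to 50 kb on the finish side the member median was −0.09. Regions inside the credited gene had a median of −1.26 and those outside it one of −1.63. Whether the latter lay in another annotated gene was not examined. The drop was not confined to the finish side. At 1 to 5 kb on the start side, 7 member regions had a WT median of 5.95 CPM on day 1 under SMADi. On day 5 it was 2.82 CPM, and all such regions had 3.99 and 3.75 CPM. At 5 to 50 kb on that side, 37 member regions had 5.01 and 3.74 CPM, against 3.48 and 3.67 CPM. Under BMP4 the 8 member regions at 1 to 5 kb had 6.71 and 8.02 CPM. How reads that also match processed pseudogenes were handled is not given in the sources used here, and the part of such reads was not tested.

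**Figure D2:**
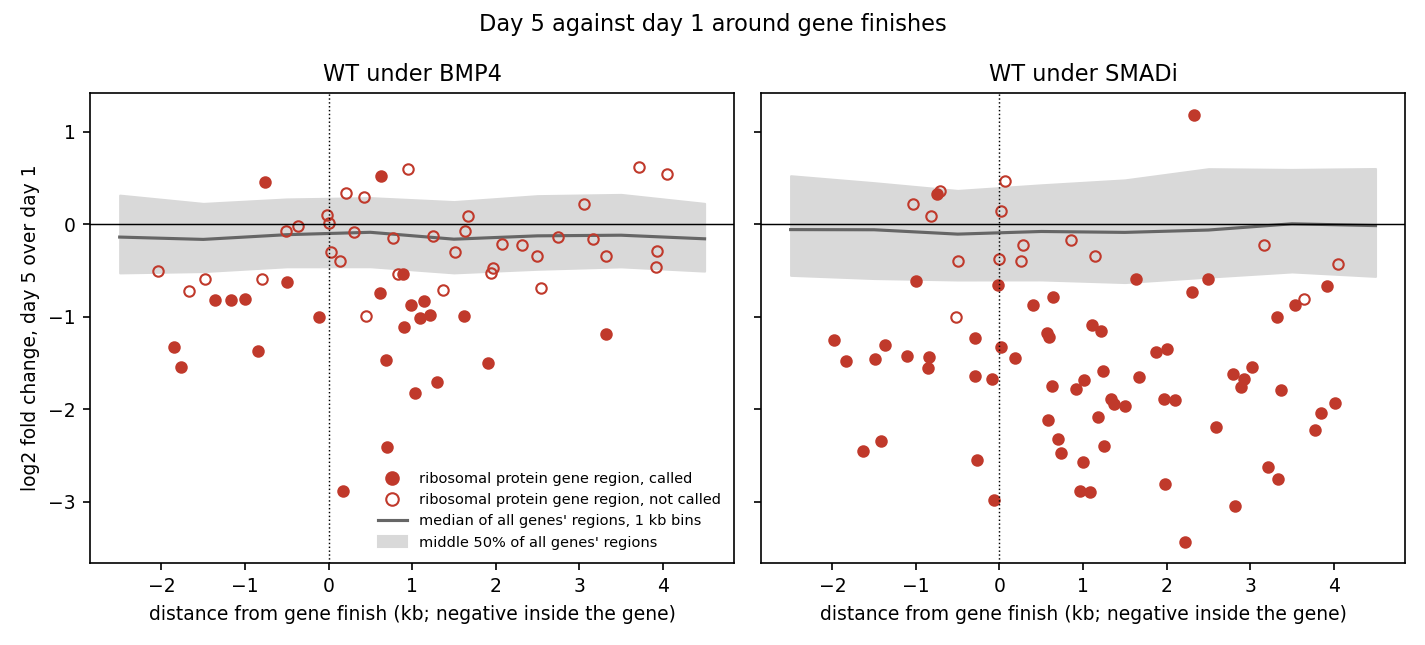
Log2 fold change of single regions in WT cells, day 5 against day 1 (y axis), by distance from the gene finish (x axis, kb, negative inside the gene), under BMP4 and under SMADi. Points are regions of ribosomal protein genes, the line and band are the median and the middle 50% of all regions at gene finishes in 1-kb bins, and the member regions under SMADi lie mostly below the band from 2 kb inside to 4 kb beyond the finish.

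Under SMADi most of the finishes tested fell in WT cells. Only members with a finish region in the deposited SMADi set could be tested, 35 of the 58 with known strand. At 1 to 5 kb on the finish side, member regions in WT had medians of 5.92 CPM on day 1 and 1.94 and 2.06 CPM on days 4 and 5. All such regions had 4.14, 3.93 and 3.90 CPM. Whether member regions entered the set through their day 1 level alone was not tested. In the finish class 29 of 35 members fell on day 5 against day 1 and none rose, against 21.3% of all genes that fell and 24.9% that rose, with medians of −1.28 for members and −0.02 for all genes. Those counts were 27 to 30 under other scalings and DESeq2. On day 4, 31 of 35 members were already lower than on day 1, against 18.9% of all genes. By subunit, 19 of 23 large-subunit and 10 of 12 small-subunit members fell, and all 7 tested members on chromosome 19 did. Of genes with related work, 7 of 14 translation factors and 4 of 6 ribosome assembly factors fell at their finishes in WT day 5 against day 1, with medians of −0.53 and −0.55, whereas 4 of 24 mitochondrial ribosomal protein genes fell and 4 rose, with a median of −0.07.

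The stalk proteins recruit elongation factors to the ribosome, and all 3 stalk genes fell at their finishes. RPLP0, which anchors the stalk, had 1.47 and 0.993 CPM in WT cells on day 5 of SMADi, against 6.49 and 5.20 CPM on day 1 (−2.33 ± 0.35, adjusted p = 4.5e-07). RPLP1 had 1.62 and 1.26 CPM on day 5 and 5.41 and 6.43 CPM on day 1 (−2.09 ± 0.35, adjusted p = 4e-06). RPLP2 had 1.32 and 0.861 CPM on day 5 and 6.19 and 5.20 CPM on day 1 (−2.47 ± 0.40, adjusted p = 1.8e-06). In each of the 3 genes both day 5 libraries lay below both day 1 libraries, and the day 4 libraries, at 0.626 to 1.81 CPM, lay with day 5.

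Among the other large-subunit genes, RPL27 had 0.294 and 0.728 CPM on day 5 in WT cells and 3.12 and 3.90 CPM on day 1, a fold change of −2.57 ± 0.48 that rests on few reads (adjusted p = 2e-05). RPL37A had 3.53 and 1.99 CPM on day 5 and 11.8 and 10.9 CPM on day 1 (−2.15 ± 0.28). RPL13A had 6.03 and 6.09 CPM on day 5 and 25.6 and 26.7 CPM on day 1 (−2.11 ± 0.20, adjusted p = 1.3e-11). At the start of RPL13A the levels went the other way, with 56.8 and 41.8 CPM on day 5 and 34.5 and 32.0 CPM on day 1 (0.54 ± 0.12, adjusted p = 0.0023), so both ends of 1 short gene moved in opposite directions.

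Among the small-subunit genes, the finish of RPS16, whose tail reaches the transfer RNA in the P site, fell most. Its levels in WT cells were 14.1 and 15.3 CPM on day 1 of SMADi, 3.88 and 2.49 CPM on day 4 and 1.76 and 1.72 CPM on day 5 (day 5 against day 1, −3.08 ± 0.29, adjusted p = 6.8e-12). KO cells had 9.56 and 9.84 CPM on day 1, 1.48 CPM on day 4 and 2.15 and 1.47 CPM on day 5, and DATG cells had 10.1 CPM on day 1, 2.35 and 1.21 CPM on day 4 and 1.62 CPM on day 5. Every line was thus highest on day 1. The start of RPS16 had 28.4 and 20.7 CPM on day 5 and 22.8 and 20.1 CPM on day 1 in WT cells (0.16 ± 0.15, adjusted p = 0.47), and the days overlapped. RPSA had 1.32 and 1.46 CPM at its finish on day 5 and 7.27 and 7.15 CPM on day 1 (−2.35 ± 0.33, adjusted p = 1e-07). RPS19 fell less at its finish, with 26.6 and 16.0 CPM on day 5 and 31.5 and 33.8 CPM on day 1 (−0.68 ± 0.16, adjusted p = 0.00044). RPS3, a small-subunit protein at the messenger RNA entry, was 1 of the 6 finishes not called, with 5.59 and 4.50 CPM on day 5 and 3.90 and 4.03 CPM on day 1 (0.31 ± 0.26, adjusted p = 0.34).

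**Figure D3:**
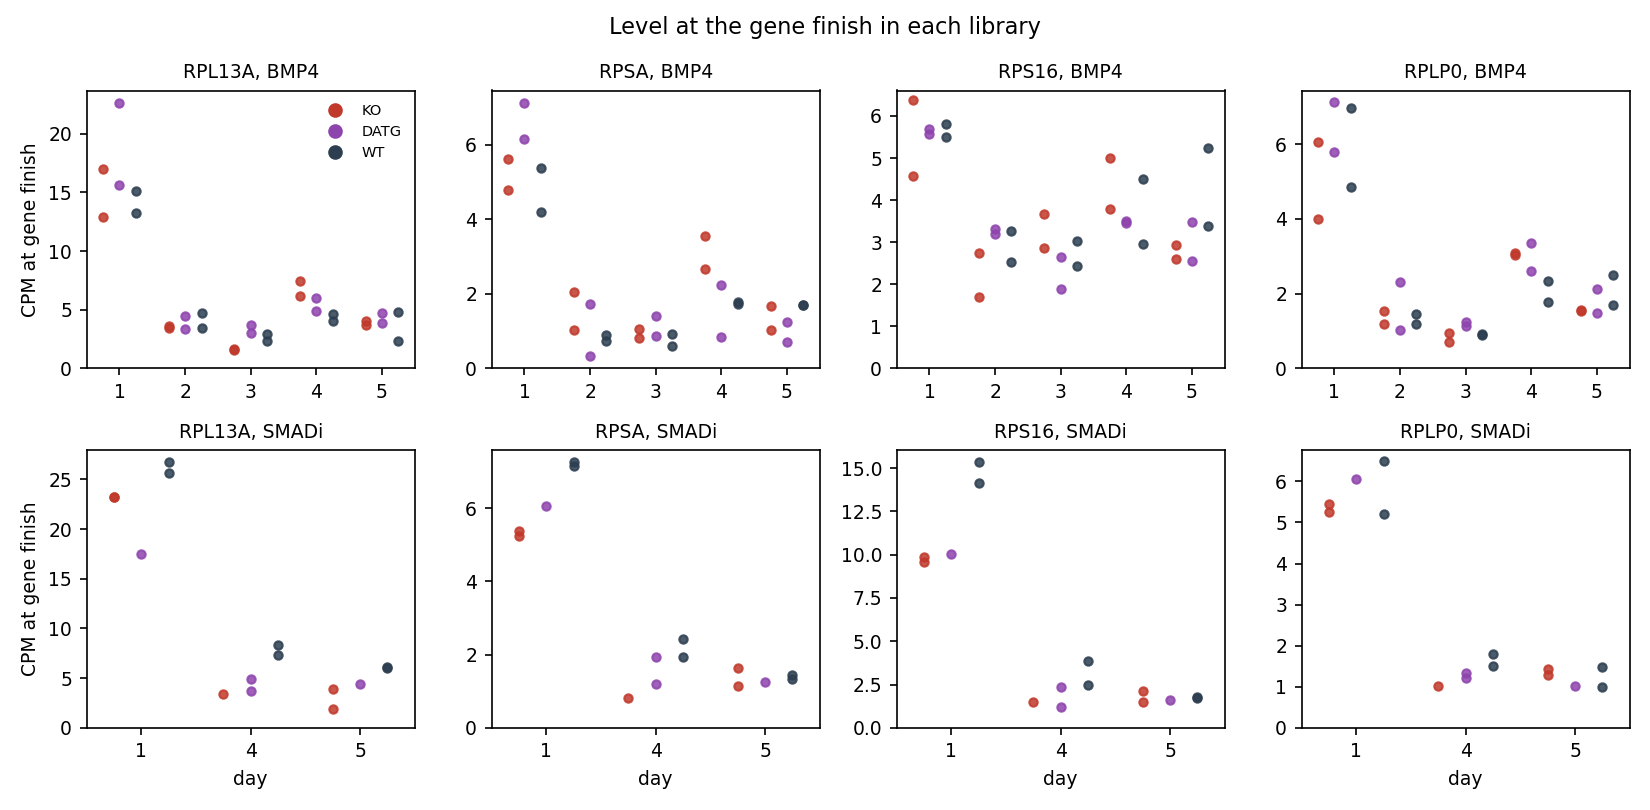
Accessibility at the gene finish (CPM, y axis) of RPL13A, RPSA, RPS16 and RPLP0 in each BMP4 and SMADi library, by day (x axis) and line, with 1 point per library. Under SMADi RPL13A, RPSA, RPS16 and RPLP0 are highest on day 1 in every line, and RPL13A under BMP4 has 15.2 and 13.2 CPM on day 1 in WT cells and 2.30 to 4.79 CPM on days 2 to 5.

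The same genes were followed under BMP4. RPL13A had 15.2 and 13.2, 3.42 and 4.70, 2.35 and 2.90, 4.02 and 4.67, and 2.30 and 4.79 CPM at its finish on days 1 to 5 in WT cells (day 5 against day 1, −1.94 ± 0.22, adjusted p = 1.6e-12). RPSA had 1.69 and 1.71 CPM on day 5 and 5.38 and 4.20 CPM on day 1 (−1.50 ± 0.33, adjusted p = 1e-04). Both genes were highest on day 1 and had their lowest mean on day 3. RPLP0 was at −1.47 ± 0.28, RPS3 at −1.54 ± 0.48, and RPS12, of the small-subunit beak, at −1.19 ± 0.30, all called. The finish of RPS16 fell by day 2 (−0.98 ± 0.28, adjusted p = 0.0093), while its day 5 value of −0.36 ± 0.24 was not called (adjusted p = 0.23). Of the 27 finishes tested in both tables, 12 fell in WT day 5 against day 1 under BMP4 and 22 under SMADi. Of these 10 were shared, 83.3% of the BMP4 and 45.5% of the SMADi calls. Since 22 of all 27 fell under SMADi, the share of the BMP4 calls was near that of all 27 members. The overlap is therefore no sign of agreement between the treatments.

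**Figure D4:**
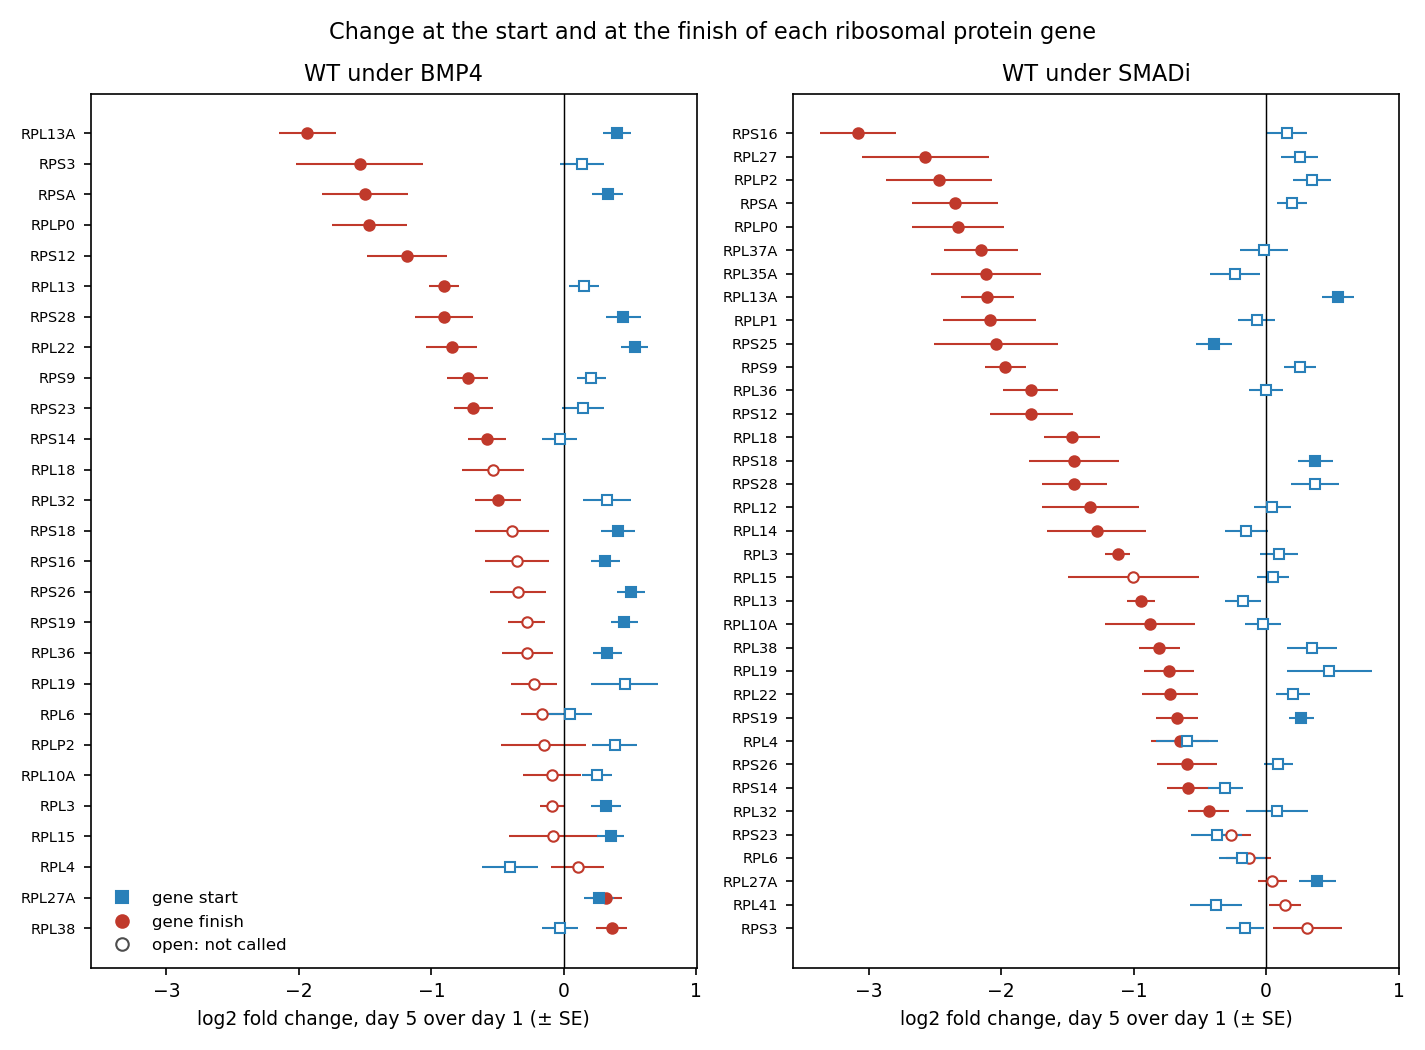
Log2 fold change with its SE (x axis) at the finish and, where tested, the start of each ribosomal protein gene with a finish region (y axis), WT day 5 against day 1, under BMP4 and under SMADi, with filled symbols for called values. Under SMADi 29 finishes were called lower, and of the 26 of these with a start tested, 22 starts were not called, 3 were higher and 1 was lower.

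Starts and finishes were set against each other within the libraries. The start class reached 1 kb and the finish class 5 kb, so side and distance were not separated. The 5 kb limit was not varied. The change at the start minus that at the finish was above 0 and called in 16 of 24 members in WT day 5 against day 1 under BMP4, against 31.1% of all genes, with medians of 0.71 and 0.27. Under SMADi it was called higher in 23 of 32 members, against 20.8% of all genes, with medians of 1.19 and 0.02, and the count was 23 without the doubted library. For the distance classes, the change within 1 kb minus that at 1 to 50 kb was higher in 18 of 33 members under BMP4, against 27.9% of all genes, and in 23 of 43 under SMADi, against 18.9%. At the starts alone under SMADi, 4 of 54 members rose (RPL13A, RPL27A, RPS18 and RPS19) and 1 fell (RPS25), against 13.4% and 10.9% of all genes. That start count ran from 0 without WT day 1 replicate b to 11 without WT day 5 replicate b, and with scaling by total counts 1 start rose and 3 fell.

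At the distances first set, the WT day 5 against day 1 change under SMADi gave 2 of 69 members higher and 8 lower within 1 kb, against 15.3% and 12.8% of all genes. RPL27A was higher, by 0.35. RPLP0 at −2.33, RPS2 at −2.31 and RPL18 at −1.47 fell most, and when regions were credited to protein-coding genes alone RPS2 was at 0.078. The count was 5 without WT day 1 replicate b and 16 without WT day 5 replicate b, and with scaling by total counts none rose and 10 fell. Farther out 27 of 45 members fell and 3 rose, against 19.8% and 30.9% of all genes, with medians of −0.60 and 0.06. RPS16, RPL13A, RPL37A, RPSA and RPLP1 fell most, at −3.08, −2.35, −2.16, −2.15 and −2.09, and all 9 tested members on chromosome 19 fell. RPL37, RPS23 and RPL29 rose, by 3.66, 0.35 and 0.25. The RPL37 value came from 1 region 11306 bp from the gene (chr5:40813756-40813956), with 1.32 and 1.17 CPM on day 1, 10.9 and 14.1 CPM on day 4 and 16.3 and 15.5 CPM on day 5 in WT cells.

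Under SMADi the mutant lines lay below WT around these genes and near WT or above it at their starts. Genotype values are means over days of within-day differences. Where the only library of a line on a day was left out, that day dropped out of the mean. This holds here and below for KO day 4 replicate b, DATG day 1 replicate a and DATG day 5 replicate a. Within 1 kb, 15 of 69 members were higher and 2 lower in KO against WT, against 37.1% and 9.21% of all genes, with medians of 0.14 and 0.16. In DATG against WT 3 were higher and 2 lower, against 29.6% of all genes called, with medians of 0.06 and 0.12. In both lines a smaller share of members than of all genes was called. At the starts alone, 14 of 54 members were higher and none lower in KO, against 40.2% of all genes higher. These rises depended on scaling, with 3 higher and 2 lower within 1 kb in KO and none higher and 3 lower in DATG by total counts, and 3 and 0 at the KO starts. Without the doubted library 8 members were higher and 1 lower within 1 kb in KO and 10 starts were higher. The KO count within 1 kb was also 10 without WT day 4 replicate b, 8 without KO day 4 replicate b and 29 without WT day 5 replicate a, and the KO start count was 7 and 24 without those last libraries. For DATG it was 16 without DATG day 1 replicate a, 12 without WT day 5 replicate a and 2 without DATG day 4 replicate b or DATG day 5 replicate a.

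RPL35, RPL35A, RPL14, RPS10 and RPL8 were the members most raised within 1 kb in KO against WT, at 0.37, 0.32, 0.27, 0.27 and 0.27. RPL35A, a large-subunit gene mutated in some patients with Diamond-Blackfan anemia, had 32.5 and 30.3 CPM in KO cells and 26.7 CPM in DATG cells on day 5, against 12.6 and 17.1 CPM in WT cells. On day 1 it had 17.1 and 17.0 CPM in KO, 13.5 CPM in DATG and 19.9 and 21.4 CPM in WT cells, so WT was the highest line on day 1 and the lowest on day 5. RPL5 was higher in KO by 0.22 ± 0.07 (adjusted p = 0.016), with 45.2 and 42.6 CPM in KO and 30.0 and 34.0 CPM in WT cells on day 5. The sign of RPL5 reversed when regions near another gene's end were left out. RPL11 had 21.4 and 22.5 CPM in KO, 20.9 CPM in DATG and 24.0 and 17.3 CPM in WT cells on day 5, with overlap (0.06 ± 0.09, adjusted p = 0.59). RPS2 and RPL32 were lower in KO, at −0.75 and −0.43. Both signs reversed under other settings. RPS2 did so when regions were credited to protein-coding genes alone, and RPL32 within 500 bp or at annotated starts.

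At 1 to 50 kb 26 of 45 members were lower in KO against WT under SMADi and 1 was higher (RPL29), against 32.6% of all genes lower and 17.3% higher, with medians of −0.32 and −0.10. In DATG against WT 19 were lower and 1 higher, against 25.7% and 15.2%, with medians of −0.25 and −0.07. The lines share their WT libraries. Without the doubted library 23 members were lower in KO, without KO day 4 replicate b 15 were called in KO, and without DATG day 5 replicate a 10 in DATG. By subunit 13 of 25 large-subunit and 13 of 20 small-subunit members were lower in KO against WT, with 7 of 9 on chromosome 19. Of the mitochondrial ribosomal protein genes 10 of 42 were lower and 7 higher, and of the translation factors 10 of 21 were lower and 1 higher.

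RPL23, a large-subunit protein that can bind MDM2, had 1.00 and 1.21 CPM at 1 to 50 kb in KO cells and 1.30 CPM in DATG cells on day 5, against 4.56 and 4.37 CPM in WT cells. On day 1 the values were 5.80 and 5.99 CPM in KO, 6.73 CPM in DATG and 6.43 and 6.30 CPM in WT cells, with the lines close together (over all days, KO −1.18 ± 0.19, DATG −1.15 ± 0.20). RPSA had 3.50 CPM in KO and 3.36 and 5.15 CPM in DATG on day 4, against 9.45 and 9.78 CPM in WT, and 2.65 and 2.55 CPM in KO and 2.46 CPM in DATG on day 5, against 4.71 and 5.43 CPM in WT (KO −0.85 ± 0.13, DATG −0.72 ± 0.13). Both mutant lines lay below WT on days 4 and 5 and beside it on day 1, at 21.2 and 21.5 CPM in KO, 23.8 CPM in DATG and 23.8 and 22.0 CPM in WT. RPS25, a small-subunit protein needed by some viral internal ribosome entry sites, and RPS3A were lower, at −1.06 and −0.99 in KO and −1.32 and −1.16 in DATG, at levels under 4 CPM. RPL11 was lower in both lines, at −0.32 ± 0.10 (adjusted p = 0.0055 in KO and 0.0095 in DATG).

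At the finishes 16 of 35 members were lower in KO against WT under SMADi and 1 was higher, against 27% of all genes lower, with medians of −0.39 and −0.10. In DATG 14 were lower and 1 higher, against 20.7% lower, with medians of −0.28 and −0.06. With loess offsets the DATG split was 6 lower and 2 higher, and 9 and 7 members were called in DATG without WT day 5 replicate b and without DATG day 5 replicate a. RPL32 had 7.23 and 6.71 CPM in KO and 7.93 CPM in DATG on day 5, against 16.2 and 16.5 CPM in WT, and 12.9 and 14.9 CPM in KO and 17.1 CPM in DATG on day 1, against 22.9 and 21.3 CPM in WT (KO −1.11 ± 0.11, adjusted p = 3.1e-11, DATG −0.76 ± 0.11). KO lay below WT on every day, mostly through a region 850 bp beyond the finish (chr3:12833435-12833635) that was at −2.50 ± 0.19 in KO and −1.94 ± 0.18 in DATG. RPS3 was the finish that was higher in both lines, with 9.88 and 10.2 CPM in KO and 10.4 CPM in DATG on day 5, against 5.59 and 4.50 CPM in WT. RPS19 was lower at its finish, at −0.40 ± 0.10 in KO and −0.30 ± 0.10 in DATG.

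The mutant lines fell over time as WT did. In KO cells 27 of 35 finishes fell on day 5 against day 1, against 36.5% of all genes, and in DATG cells 24 did, against 33.5%. On day 1 alone, 1 finish was called in KO against WT, against 1.8% of all genes, and none in DATG, against 1.32%, although the summed finish levels were 537 and 553 CPM in KO and 598 CPM in DATG, below the 639 and 628 CPM in WT. The start minus finish difference was higher in KO against WT in 19 of 32 members and lower in none, against 36.1% of all genes, and in DATG in 13, against 25%. The value within 1 kb minus that at 1 to 50 kb was higher in KO in 23 of 43 members, against 36.8%, and in DATG in 16, against 26.8%. Markers also differed on day 5. The 5 neuroectoderm markers within 1 kb summed to 183 and 184 CPM in KO and 166 CPM in DATG, against 122 and 120 CPM in WT. The 5 mesoderm markers summed to 153 and 148 CPM in KO and 147 CPM in DATG, against 107 and 115 CPM in WT. The 6 stem cell markers summed to 137 and 129 CPM in KO and 133 CPM in DATG, against 96.0 and 112 CPM in WT. All 3 lists were thus higher in both mutant lines on that day, but so were genes in general. All protein-coding genes other than the members summed within 1 kb to 445614 and 435276 CPM in KO and 413928 CPM in DATG. In WT they summed to 347361 and 339567 CPM. Over days, 2 of the 5 neuroectoderm markers were higher and 1 lower in KO against WT. Of the 6 stem cell markers 1 was higher and 3 lower, and 4 of the 5 mesoderm markers were higher. The part of the markers in the ribosomal gene values was not tested.

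Under BMP4 the mutant lines differed from WT at few members. Within 1 kb, 2 of 68 members were called in KO, both lower (RPL38 at −0.21 and RPL10A at −0.15), against 12.8% of all genes called. In DATG 1 was called, RPL14, at −0.21, against 5.41%. RPL38, whose loss in mice alters the translation of Hox messengers, had 34.9 and 34.3 CPM in KO cells on day 5 and 39.5 and 42.5 CPM in DATG cells, against 49.7 and 48.1 CPM in WT cells, with no overlap. On day 1 it had 41.3 and 45.9 CPM in KO, 43.3 and 36.2 CPM in DATG and 41.7 and 42.0 CPM in WT cells, with overlap. The difference came from a region 625 bp beyond its finish (chr17:74211280-74211480), at −0.74 ± 0.09 in KO, and within 500 bp of the gene the value was 0.00267. With counts this small, leaving out single libraries gave 1 to 3 in KO and 0 to 4 in DATG, with 6 of 30 libraries moving the KO count and 13 the DATG count by over 1.5 times. The DATG count was 4 without DATG day 5 replicate a, and 0 without WT day 2 replicate a or WT day 4 replicate a, and the KO count was 1 without WT day 5 replicate a. Markers also differed under BMP4 within 1 kb in KO against WT, where 3 of 5 mesoderm markers were lower and 4 of 5 neuroectoderm and 2 of 6 stem cell markers higher, and their part in the values was not tested.

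At 1 to 50 kb, 5 of 36 members were higher and 2 lower in KO against WT under BMP4, against 33.8% of all genes called, and 4 were higher and 2 lower in DATG, against 17.8%. With scaling by total counts the DATG split was 7 higher and 2 lower. RPSA was higher by 0.25 in KO and 0.26 in DATG, the reverse of its sign under SMADi, with 10.6 and 12.7 CPM in KO, 11.9 and 10.9 CPM in DATG and 8.74 and 10.5 CPM in WT cells on day 5. RPL23 was higher in KO by 0.66 ± 0.13, again the reverse of its SMADi sign, with 6.12 and 5.18 CPM in KO and 3.37 and 3.19 CPM in WT cells on day 5. The 2 treatments were not tested against each other. RPL26 was lower, at −0.72 ± 0.09 in KO and −0.46 ± 0.08 in DATG, through a region 1934 bp before its start (chr17:8385127-8385327). It had 7.52 and 6.21 CPM in KO, 12.7 and 6.96 CPM in DATG and 16.4 and 17.7 CPM in WT cells on day 5. The lines were closer on day 1, at 7.10 and 7.17 CPM in KO, 8.54 and 6.87 CPM in DATG and 7.93 and 11.3 CPM in WT.

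Whether the day 5 against day 1 change differed between lines was tested as the change in a mutant line minus that in WT. This difference was not fitted under other scalings. Under BMP4 it was called in KO for 1 member within 1 kb (RPL38, −0.55), against 1.69% of all genes, for 1 at 1 to 50 kb (RPL26, −0.90), against 8.86%, and for 1 at finishes (RPL38, −0.79), against 4.18%. Under SMADi it was higher in KO for 26 of 69 members within 1 kb, against 26.5% of all genes, and for 17 of 54 starts, against 28.6%, and in DATG for 4 members, against 13.3%, and 3 starts, against 14%. The members' shares were thus near or below those of all genes, except for KO within 1 kb, where 21 were called without the doubted library. At 1 to 50 kb it was called for 7 members in KO, against 29.2%, and 8 in DATG, against 25%. At finishes 6 members were called in KO, against 22.8%, and 3 in DATG, against 18.8%.

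**Figure D5:**
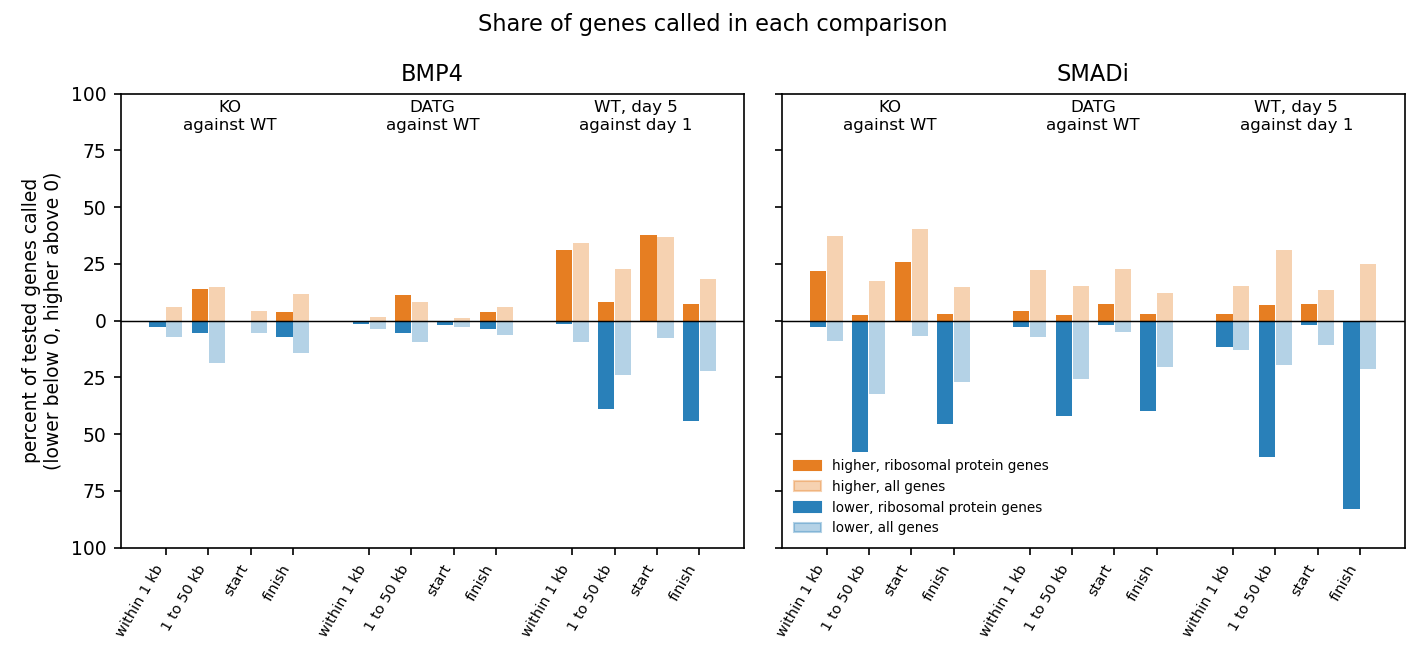
Share of ribosomal protein genes (full colour) and of all genes (pale) called higher (above 0) or lower (below 0), in percent (y axis), in each class of region and comparison (x axis). The shares of members that fell at gene finishes in WT cells on day 5 against day 1 stand above those of all genes, at 29 of 35 members under SMADi, against 21.3%, and 12 of 27 under BMP4, against 22.2%, while the shares within 1 kb lie below those of all genes.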

How the data were processed

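ATAC-seq reads of 51 H1 libraries were available as 3 deposited tables of raw read counts per 201-bp region, for day 0 (6 libraries), BMP4 (30) and SMADi (15). MACS2 and GRCh38 are named in the submitters' processing notes, and the sources used here do not give the aligner, its treatment of reads with several matches, duplicates or the read shift. The counts were used as deposited by the authors. Regions were credited to the nearest end of 38340 RefSeq genes (20037 protein-coding, 18303 long noncoding), with ties credited to each gene, and summed per gene within 1 kb, at 1 to 50 kb, at starts and at finishes. All classes were tested per table with edgeR 4.0.16 (R 4.3.3; limma 3.58.1) by the robust quasi-likelihood F test, after its filter on low counts, with TMM scaling from all regions and 1 mean per line and day. P-values were adjusted by the Benjamini-Hochberg method over all genes of a class, and called means an adjusted p under 0.05. CPM are counts scaled to the TMM-adjusted library size. Each SE was taken as the size of the log2 fold change over the root of its F statistic. Starts and finishes were compared within libraries with the library as a block.

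The members and all gene lists were chosen with earlier results of these data known. Named genes were the 5 called members with the largest rise and the 5 with the largest fall per comparison and class, with RPLP0, RPSA, RPL5, RPL11, RPS6 and RPS19 in addition; others named were chosen after their values were seen, and a few members are counted but not reported by name here. Alternatives were total-count scaling, loess offsets, no filter, thinned counts, DESeq2 1.42.0, other distances and annotations, the replicate block and each library left out. The steps were tested on simulated data with 200 changed genes, of which, for KO against WT under SMADi, 98% within 1 kb and 95% at finishes were recovered at a log2 change of 1. The 24 pairs of replicates all differed by more than sampling noise. Counts come from PCR-amplified reads without molecular identifiers, so depth gives counting error only.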

Additional observations from a re-analysis of the deposited data

Results flagged for a closer look

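The change on day 5 against day 1 differed between a mutant line and WT, by the test of the difference itself, for the following members. Under BMP4, KO differed from WT for 1 member within 1 kb (RPL38), 1 member at 1 to 50 kb (RPL26, −0.90 on the log2 scale) and 1 member at gene finishes (RPL38), against 1.69%, 8.86% and 4.18% of all genes. Under SMADi, KO differed for 26 of 69 members within 1 kb and 17 of 54 at gene starts, all higher, against 26.5% and 28.6% of all genes, and for 7 of 45 at 1 to 50 kb and 6 of 35 at gene finishes, against 29.2% and 22.8%. DATG differed under SMADi for 4 of 69 members within 1 kb and 3 of 54 at gene starts, all higher, against 13.3% and 14% of all genes, and for 8 of 45 at 1 to 50 kb and 3 of 35 at gene finishes, against 25% and 18.8%. Except for KO within 1 kb, these shares of members were near or below those of all genes. The differences were not fitted under other scalings, so the KO share within 1 kb is open to the scaling chosen.

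Among the members followed in every comparison, RPSA differed in both mutant lines under SMADi. Within 1 kb its change was higher than in WT by 0.59 in KO and 0.57 in DATG, and at 1 to 50 kb the difference was −0.89 in KO and −1.13 in DATG. Its levels within 1 kb on day 5 were 50.5 and 50.5 CPM in KO and 45.3 CPM in DATG, against 37.6 and 35.2 CPM in WT. At 1 to 50 kb under SMADi the KO difference was −1.25 for RPL13A and −1.86 for RPL37. RPL37 had 4.51 and 6.45 CPM in KO on day 5, against 16.3 and 15.5 CPM in WT. DATG day 1 and day 5 under SMADi had 1 library each, and the library labelled KO SMADi day 1 replicate b enters each KO value.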

How the results depend on the processing

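Of 254 counts of called members under other settings, 211 stayed within 1.5 times the count reported and 43 did not. No share of all genes is given beside these counts. Of 1841 values of named members, 1643 kept direction and side of the threshold, 167 lost the call, 9 gained it and 22 reversed. With libraries left out, 3445 of 3651 values kept both and 1 reversed. The cause was not tested except where fewer genes, counts or regions entered by construction.

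Counts that moved over 1.5 times under BMP4 were, within 1 kb in WT, 13 by total counts and 6 by loess; at starts in WT, 9 by total counts, 3 by loess and 13 thinned; within 1 kb in KO, 1 by total counts, thinned, DESeq2 or 500 bp, 4 at 2 kb and 0 at annotated starts; within 1 kb in DATG, 0 thinned or by DESeq2, 3 at 2 kb and 2 without neighbours or with any region; and at 1 to 50 kb, 3 in DATG at 2 kb, 11 in KO by loess and 10 in WT at 2 kb. Under SMADi they were, within 1 kb, 3 in DATG by total counts or loess, in KO 5 by total counts or loess and 10 thinned or without neighbours, and in WT 6 at 500 bp and 5 at annotated starts. At 1 to 50 kb they were 11 in DATG by loess and 13 thinned or at 2 kb, and 17 in KO by DESeq2. At finishes DATG had 8 by loess or thinned and 7 by DESeq2. At starts KO had 3 by total counts or loess, and WT had 3 by loess or thinned and 2 by DESeq2 or with the replicate block. Within 1 kb minus farther out, 2 kb gave 10 in WT under BMP4, and 8 in DATG and 15 in KO under SMADi.

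Letters of replicates did not pair the libraries (r from −0.18 to 0.18). With the replicate block, 22 members rose and 1 fell within 1 kb in WT under BMP4, and 29 finishes were called in WT under SMADi.

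Reversed values under BMP4 were, by loess in WT, RPS29 −0.0784 at 1 to 50 kb, RPL27A −0.16 at the finish, and RPS19 −0.0541 within 1 kb; RPL38 in KO 0.00267 at 500 bp and 0.14 at annotated starts; and in WT RPLP0 0.19 with protein-coding genes or any region and RPSA −0.17 at 2 kb. Under SMADi they were RPL14 at 1 to 50 kb with protein-coding genes, 0.10 in DATG and 0.13 in KO; RPL29 in WT −0.0116 without WT day 5 replicate a, against 0.53 without replicate b; RPL32 at 500 bp or annotated starts, 0.0744 in DATG and 0.13 in KO; RPL5 in KO −0.25 without neighbours; RPLP0 in KO 0.24; RPS2 in KO 0.16 with protein-coding genes and 0.0353 with any region, and in WT 0.0784; RPS19 in WT 0.27 at annotated starts; and RPS19 at the start in KO −0.0205 by loess.

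Leaving out 1 library at a time gave counts under SMADi of 10 to 22 in DATG, 15 to 27 in KO and 22 to 30 in WT at 1 to 50 kb, of 7 to 16 in DATG, 12 to 20 in KO and 24 to 29 in WT at finishes, of 2 to 16 in DATG, 8 to 29 in KO and 5 to 16 in WT within 1 kb, and of 7 to 24 in KO and 0 to 11 in WT at starts. Under BMP4 they were 4 to 7 in DATG, 7 to 8 in KO and 13 to 18 in WT at 1 to 50 kb, 0 to 4 in DATG, 1 to 3 in KO and 12 to 25 in WT within 1 kb, 9 to 14 at finishes in WT and 11 to 22 at starts in WT. On day 0 all were 0. Under SMADi, leaving out KO day 4 replicate b, DATG day 1 replicate a or DATG day 5 replicate a also dropped that day from the line's mean.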
